A study of Homo sapiens with 2 samples.

Results

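The 10 genes described here are MET, the gene of a receptor tyrosine kinase, and 9 genes beside it on the long arm of chromosome 7, at 7q31. They were chosen by symbol and position, with earlier results of these data known, and some genes that lie between them are left out. All 10 were found among the 18944 genes of the deposited count table. RNA was sequenced from a derivative of H1993 resistant to PHA665752 and from parental H1993, with 1 library of each. H1993 is an established human lung adenocarcinoma line in which MET is amplified, and PHA665752 is a compound that inhibits the kinase activity of MET. The resistant derivative was obtained by stepwise selection, with PHA665752 starting at 1 nM and ending at 1 µM, was kept in 1 µM, and spent 1 week in drug-free medium ahead of the experiments. The treatment label is PHA665752 for the resistant library and DMSO, the solvent control, for the parental one, and both cultures were grown in RPMI-1640 with 10% fetal bovine serum. The labels do not say whether the derivative is 1 clone or a pool, nor whether RNA was extracted with drug still in the medium.

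When a chromosome segment is amplified, the genes that lie beside the selected gene are often copied with it, and each may then be transcribed from the extra copies. The RNA of neighbours therefore shows how a whole segment was read, beside the RNA of the driver gene alone. MET binds hepatocyte growth factor and passes growth and motility signals into the cell. Its neighbours include the caveolin genes CAV1 and CAV2, the actin and adhesion genes TES and CAPZA2, and genes without a known role in MET signalling. DNA copy number was not measured in this series.

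The resistant library held 17086748 counts and the parental one 16723181. Since each group has 1 library, differences have no replicate check and no p-value is given, and all results describe these 2 libraries. Levels are given as CPM, the counts divided by a library size scaled with the TMM method and set to a common total. The log2 ratio sets resistant over parental, after 0.5 was added to every count. Intervals are exact 95% intervals that cover counting error only, and reads are not independent molecules. Carcinoma epithelial markers were abundant in both libraries, with 6 of 6 tested and a summed level of 8383 CPM in resistant and 7707 CPM in parental cells. Their median log2 ratio was -0.29, with 3 of the 6 below 0. EPCAM was lower by the 2-fold rule described below, at 164 CPM in resistant and 389 CPM in parental cells (-1.25), CDH1 was at -0.69 and KRT19 at -0.63, while the abundant keratin genes KRT8 and KRT18 were at 0.35 and 0.33. The part of this epithelial difference in the 7q31 values was not tested. Of the lung lineage markers NKX2-1 was low, at 5.95 CPM in resistant and 4.16 CPM in parental cells, NAPSA was at 0 counts in both libraries, and SFTPB and SFTPC did not exceed 2 counts. Of 6 fibroblast markers COL1A1 alone reached 1 CPM, and the list summed to 15.0 CPM in resistant and 20.9 CPM in parental cells, with DCN at 0 counts in both. The 4 leukocyte markers summed to 2.47 CPM in resistant and 1.78 CPM in parental cells, with CD3E at 0 counts in both. CD14 had 33 counts in resistant and 5 in parental cells and was higher by the same rule, and PTPRC had 7 in resistant and 21 in parental cells and was lower. Among 3 endothelial markers, the cadherin gene CDH5 had 495 counts in resistant and 5 in parental cells, while PECAM1 and VWF had at most 1 count. CD14 and CDH5 reached 1 CPM in the resistant library only and PTPRC in the parental one only. Whether these differences bear on the 7q31 values was not tested.

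The sequences in front of 4 of the genes are shown because they carry the contrasts described below. MET is the drug target, CAV1 and MDFIC were the members at least 2-fold lower in resistant cells, and CTTNBP2 was the member at least 2-fold higher. Each runs 5′ to 3′ from 250 bases before to 50 bases after a gene start listed by RefSeq on GRCh38.p14, and capitals mark GGGCGG or its reverse complement CCGCCC, the core of the GC box bound by Sp1-type factors. The windows are chr7:116671946-116672245 on the plus strand for MET, chr7:116524759-116525058 plus for CAV1, chr7:114921844-114922143 plus for MDFIC and chr7:117873392-117873691 minus for CTTNBP2, in each case the first start listed. These positions belong to the RefSeq table and were not compared with the build behind the counts.
MET: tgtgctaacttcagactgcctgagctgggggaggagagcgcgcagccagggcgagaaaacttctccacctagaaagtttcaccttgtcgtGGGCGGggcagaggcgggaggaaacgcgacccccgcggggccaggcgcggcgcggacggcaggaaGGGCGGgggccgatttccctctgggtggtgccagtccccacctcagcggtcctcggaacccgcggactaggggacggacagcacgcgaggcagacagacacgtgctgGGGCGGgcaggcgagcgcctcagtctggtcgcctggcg
CAV1: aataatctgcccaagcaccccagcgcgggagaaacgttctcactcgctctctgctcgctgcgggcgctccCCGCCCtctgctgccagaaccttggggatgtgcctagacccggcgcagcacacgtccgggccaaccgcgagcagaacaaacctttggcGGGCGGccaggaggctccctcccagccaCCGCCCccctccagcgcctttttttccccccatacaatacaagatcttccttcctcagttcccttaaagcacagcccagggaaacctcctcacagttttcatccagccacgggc
MDFIC: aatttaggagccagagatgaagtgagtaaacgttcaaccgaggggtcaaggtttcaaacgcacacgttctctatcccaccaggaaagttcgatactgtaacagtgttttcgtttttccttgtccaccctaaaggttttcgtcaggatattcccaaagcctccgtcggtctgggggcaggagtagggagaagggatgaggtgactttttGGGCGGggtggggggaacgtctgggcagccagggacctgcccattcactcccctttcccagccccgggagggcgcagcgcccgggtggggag
CTTNBP2: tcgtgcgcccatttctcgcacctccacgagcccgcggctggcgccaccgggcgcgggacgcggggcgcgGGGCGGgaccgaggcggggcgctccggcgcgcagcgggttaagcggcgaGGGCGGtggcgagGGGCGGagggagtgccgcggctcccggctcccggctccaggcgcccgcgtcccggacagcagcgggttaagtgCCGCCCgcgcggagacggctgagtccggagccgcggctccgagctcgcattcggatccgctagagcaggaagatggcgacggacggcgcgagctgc

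GC boxes were present in all 4 windows, 3 times each in MET and CAV1, 1 time in MDFIC and 4 times in CTTNBP2. On either strand, GGGCGG was found in 44.95% of all 35116 promoter windows of the table and in 66.0% of the 14765 windows of tested genes. The GC content was 69.3% for MET, 62.3% for CAV1, 56.3% for MDFIC and 77.7% for CTTNBP2, against a median of 65.0% over windows of tested genes. CpG dinucleotides numbered 30, 19, 15 and 53 in that order, against a median of 25. Other listed starts of the same genes can give other values. The second start of CTTNBP2 had 0 GC boxes, 62.3% GC and 13 CpG, and the third start of CAV1 had 2 GC boxes, 71% GC and 36 CpG. Of the other motifs searched on both strands, CACGTG, the E-box, occurred 1 time in MET and in none of the other 3, and it is found in 9.34% of the windows of tested genes. None of the 4 windows held the TATA box core TATAAA (6.43% of windows of tested genes), the AP-1 motif TGANTCA (5.34%) or the TEAD motif GGAATG (11.4%). No motif contains another. RefSeq windows were matched for all 10 genes.

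MET had 51832 counts in the resistant and 81798 in the parental library, or 3054 CPM in resistant and 4859 CPM in parental cells. The log2 ratio was -0.67 (-0.69 to -0.65), a level 1.59-fold lower in resistant cells that did not reach the 2-fold rule used here. That rule asks for a log2 ratio of at least 1 in size and an interval that excludes 0. MET therefore remained a highly abundant transcript after resistance was acquired, and took 0.303% of all counts (0.301 to 0.306%) in resistant and 0.489% (0.486 to 0.492%) in parental cells. In bulk RNA, fewer cells with a transcript and less of it per cell cannot be told apart.

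CAV1, the neighbour of MET on the centromere side and the gene of the main structural protein of caveolae, differed most among the members that had counts in both libraries. It had 295 CPM in resistant and 933 CPM in parental cells, a log2 ratio of -1.66 (-1.71 to -1.62), which is 3.16-fold lower (3.06 to 3.27). CAV2, which lies next to CAV1 and encodes a caveolin that assembles with it, had 777 CPM in resistant and 1142 CPM in parental cells, 1.47-fold lower with a log2 ratio of -0.56 (-0.59 to -0.52). The pair thus separated: for every CAV2 count there were 0.380 CAV1 counts in the resistant library and 0.817 in the parental one, 2.15-fold fewer in resistant cells (2.07 to 2.24). This ratio within a library does not depend on how the libraries were scaled.

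The actin and adhesion genes stood between MET and CAV1. TES encodes testin, a LIM-domain protein of focal adhesions, and had 300.5 CPM in resistant and 523 CPM in parental cells, a log2 ratio of -0.80 (-0.85 to -0.75). CAPZA2 encodes an alpha subunit of the capping protein that closes the growing end of actin filaments, and had 194 CPM in resistant and 330.3 CPM in parental cells, a log2 ratio of -0.76 (-0.83 to -0.70). Neither was 2-fold lower. Both lay within 0.13 of the log2 ratio of MET.

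MDFIC encodes a protein that binds transcription factors of the MyoD family and is an auxiliary subunit of PIEZO channels. It had 69.6 CPM in resistant and 149.9 CPM in parental cells, 2.15-fold lower (2.01 to 2.31). TSPAN12, the gene of a tetraspanin that aids signalling from norrin through the receptor FZD4, had 108 CPM in resistant and 202 CPM in parental cells, 1.87-fold lower (1.77 to 1.98). LSM8, a subunit of the nuclear LSM ring that binds U6 small nuclear RNA, had 59.2 CPM in resistant and 107 CPM in parental cells, 1.80-fold lower (1.67 to 1.95). TSPAN12 and LSM8 came close to the 2-fold rule without reaching it.

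ST7 and CTTNBP2 did not share the lower level. ST7 encodes a membrane protein of uncertain function and had 933 counts in the resistant and 945 in the parental library. At 55.0 CPM in resistant and 56.1 CPM in parental cells, its log2 ratio was -0.03, and its interval of -0.16 to 0.10 included 0. CTTNBP2 encodes a cortactin-binding protein known from neuronal dendrites, and had 46 counts in the resistant library and 0 in the parental one. A count of 0 allows up to 3 counts, or 0.178 CPM, so the 2.71 CPM in resistant cells was at least 15.2-fold higher if the 46 counts are taken as they stand. The exact interval, which also covers the error of the 46, began at 11.9-fold. The deposited log2 values of CTTNBP2, 0.538 in resistant and 0.000 in parental cells, differed by less than 1. As described below, these values appear to have 1 added before the log, which keeps differences between such low levels small. Exons of ST7 overlap those of several small and antisense RNA genes in GENCODE release 29, among them ST7-AS1 and ST7-OT4, and CTTNBP2 shares 51 exon bases with CFTR on the opposite strand. Members with a lower level have such partners too. CAPZA2 shares 579 exon bases (6.87%) with a pseudogene, TES 242 (5.65%) and CAV2 76 (1.10%) with other transcripts, all on the opposite strand. The strand setting of the counting is not given in the sources used here, so reads of such partners cannot be told apart for these 5 genes.

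**Figure D1:**
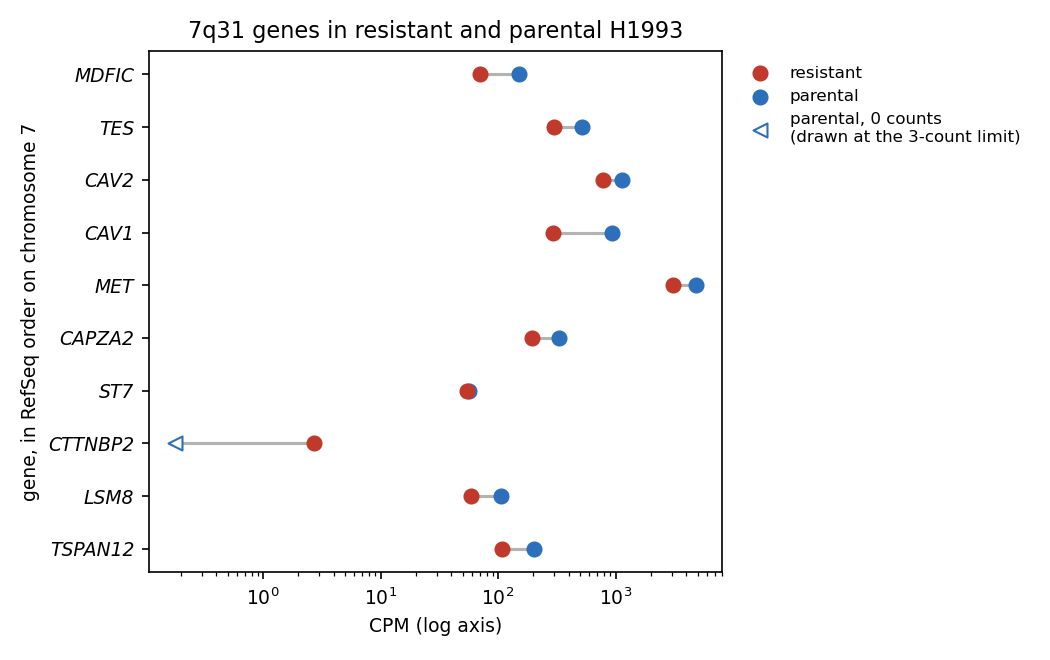
CPM on a log axis of the 10 genes, ordered from top to bottom as RefSeq orders them along chromosome 7, with red points for the resistant and blue points for the parental library and 1 library each. The resistant point lies left of the parental one for MET and for 8 of its neighbours, by least for ST7, and CTTNBP2 alone is higher in resistant cells, with its 0 parental counts drawn as an open triangle at the 3-count limit of 0.178 CPM.

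Counted over the 10 members, 9 log2 ratios were below 0 and 8 whole intervals lay below 0. By the 2-fold rule 2 members were lower, CAV1 and MDFIC, against 8.29% of the 12245 tested genes, and 1 was higher, CTTNBP2, against 12.1%. A gene was tested when it reached 1 CPM in at least 1 library, which all 10 did, CTTNBP2 only through the resistant one. By a 1.5-fold rule with an interval excluding 0, 7 of 10 members were lower, against 16.4% of all tested genes, and by a 4-fold rule 0 were, against 2.93%. The median log2 ratio of the members was -0.78, against 0.00 over all tested genes. The 9 members with counts in both libraries ranged from -1.66 to -0.03, and for CTTNBP2 there is only a lower bound. With the whole interval required to lie beyond 2-fold, again 2 were lower and 1 higher, against 5.35% and 8.96% of all tested genes, and 1 was 4-fold higher, against 6.32%. In the deposited log2 values 2 were lower by 1 or more and 0 higher, against 4.83% and 7.56%. At the low level of CTTNBP2 these values could not differ by 1, so the 0 does not check its call. Genes in a neighbourhood are not replicates of one another, so these counts describe the segment and carry no test.

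As a sum, the 10 genes took 0.488% of all counts (0.485 to 0.492%) in resistant and 0.836% (0.831 to 0.840%) in parental cells. MET made up 62.1% of their counts (61.8 to 62.5%) in resistant and 58.5% (58.3 to 58.8%) in parental cells. Without MET, the other 9 summed to 31584 counts in the resistant and 57944 in the parental library, 1.85-fold lower (1.82 to 1.88) after scaling. CAV1 carried the distance of this sum from MET. Without CAV1 the other 8 summed to 26579 counts in the resistant and 42241 in the parental library, 1.60-fold lower (1.58 to 1.63), which overlaps the 1.59-fold of MET (1.57 to 1.61). The overlap holds for the sum, of which CAV2 gave 13182 counts in resistant and 19224 in parental cells. Single genes of the 8 lay above or below MET, as given next.

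Setting each neighbour against MET within its own library removes the scaling from the comparison. CAV1 had 0.0966 counts per MET count in resistant and 0.192 in parental cells, a difference of -0.99 on the log2 scale (-1.04 to -0.94). MDFIC followed at -0.44 (-0.54 to -0.34). TSPAN12 (-0.23), LSM8 (-0.18), TES (-0.13) and CAPZA2 (-0.09) were closer to MET, with every interval below 0. CAV2 was slightly higher relative to MET, at 0.11 (0.08 to 0.15). ST7 was 1.56-fold higher relative to MET (1.42 to 1.71), with 0.0180 counts per MET count in resistant and 0.0116 in parental cells. These intervals come from a normal approximation on the log scale. The values showed no simple order with distance from MET. CAV1 and CAV2, side by side, differed from MET in opposite directions, and ST7, the second tested gene on the telomere side, was farthest above it of the members with counts in both libraries.

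Levels can be compared between genes only per transcript length. The deposited log2 values fitted such a scale: taking 2 to the power of the value and subtracting 1 gave a level that implied the same length in both libraries, within 5% of the median ratio, for 96.3% of the 10256 genes with at least 50 counts in both. For MET the implied length was 6.62 kb in resistant and 6.71 kb in parental cells, and its longest GENCODE release 29 transcript has 6635 bases. Not all genes fitted their longest transcript, with 51.1% of 10087 genes within 10% of it in parental cells. For LSM8 the implied length was 12.7 kb in resistant and 12.9 kb in parental cells, against 4030 bases, and for CAPZA2 it was 2.21 kb in resistant and 2.25 kb in parental cells, against 5182 bases, so the levels of both rest on other gene models. How the authors made these values is not stated, and the level is called length-scaled here.

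On the length-scaled level MET stood first among the 10 genes, at 458 in resistant and 729 in parental cells. It ranked 146 among all genes of the table in resistant and 98 in parental cells. CAV2 was second, at 272 in resistant and 385 in parental cells. CAV1 was at 116 in resistant and 365 in parental cells, 1.05-fold below CAV2 in the parental library (1.03 to 1.08) and 2.35-fold below it in the resistant one (2.28 to 2.43). TES was at 112 in resistant and 195 in parental cells. In resistant cells CAV1 and TES did not differ beyond counting error, with a ratio of 1.03 (0.989 to 1.07), whereas in parental cells CAV1 was 1.87-fold above TES (1.82 to 1.92). CAPZA2 and TSPAN12 followed in both libraries. CAPZA2 was at 87.2 in resistant and 148 in parental cells, and TSPAN12 was at 44.1 in resistant and 82.3 in parental cells. ST7 and MDFIC changed places. ST7 was at 25.5 in resistant and 26.2 in parental cells, while MDFIC was at 16.6 in resistant and 36.1 in parental cells. LSM8 was at 4.62 in resistant and 8.32 in parental cells. CTTNBP2 was last, at 0.452 in resistant cells and listed at 0 in parental cells. Ranks below the second depended on the gene model. With CPM divided by the longest GENCODE transcript, a choice made after seeing the data, CAPZA2 no longer stood above TSPAN12. CAPZA2 was then at 37.5 CPM per kb in resistant and 63.7 in parental cells, and TSPAN12 at 38.6 CPM per kb in resistant and 72.1 in parental cells. TES then stood above CAV1 in resistant cells, and LSM8 above ST7 in parental cells. On the deposited length-scaled level, the neighbouring pairs other than CAV1 and TES differed beyond counting error in each library in which they were compared. CTTNBP2 was not compared in the parental one. Pairs in the order by GENCODE length were not compared for counting error.

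Between MDFIC and TSPAN12, the outermost members, the table holds 6 further genes. TFEC, WNT2, ASZ1 and ANKRD7 were under 1 CPM in both libraries and were not tested. CFTR, the gene of an epithelial chloride channel, had 1 count in the resistant and 61 in the parental library, a log2 ratio of -5.37 (-11.27 to -3.41). KCND2, the gene of a voltage-gated potassium channel, had 130 counts in the resistant and 0 in the parental library and was at least 43.0-fold higher against the 3-count limit. The exact interval of KCND2, which also covers the error of its 130 counts, began at a log2 ratio of 5.11. CFTR, KCND2 and CTTNBP2 each reached 1 CPM in 1 library only, so that the filter fixed the direction of their differences. The abundant genes of the stretch, ST7 aside, were lower by 1.47-fold to 3.16-fold.

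All of the 20 tested genes on each side of MET were taken next, by position alone. Of these 41 genes with MET, 10 were lower by the 2-fold rule and 6 higher, against 9.27% and 14.6% of the 604 tested genes of chromosome 7. Of the 10 lower genes 3 reached 1 CPM in the parental library only, and of the 6 higher genes 5 did so in the resistant library only, so that the filter fixed their direction. The other 7 lower genes and 1 higher gene reached 1 CPM in both libraries. Ratios were below 0 for 31 of 41, against 44.5% of the tested genes of chromosome 7. The median was -0.56, against 0.09 over chromosome 7. The excess of lower over higher calls depended on the filter and on the width of the stretch. With no filter beyond 1 count, 5 genes were lower and 6 higher, with a median of -0.12, and with 10 genes on each side 3 were lower and 4 higher, with a median of -0.28. For the 31 genes that are no members the median was -0.29, with 22 below 0. The 5 most abundant genes by the mean CPM of both libraries, here and below a value not per length, were MET, CAV2, WASL, FAM3C and CAV1. WASL, which encodes the actin-nucleation promoter N-WASP, had a log2 ratio of -0.58 (-0.62 to -0.55). FAM3C, the gene of a secreted cytokine-like protein, had 602 CPM in resistant and 635 CPM in parental cells, a log2 ratio of -0.08 (-0.12 to -0.04).

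Of the 8 lower genes of the stretch that are no members, 5 lay on the centromere side. BCAP29 (-1.16), DLD (-1.06), PNPLA8 (-1.22) and THAP5 (-1.13) had 55.1 to 180 CPM in resistant and 128 to 375 CPM in parental cells. DLD encodes a shared subunit of mitochondrial dehydrogenase complexes, and PNPLA8 a phospholipase. SLC26A4, an anion exchanger gene, had 5 counts in the resistant and 55 in the parental library. On the telomere side HYAL4, of the hyaluronidase family, had 18 counts in the resistant and 486 in the parental library (-4.73), and TMEM229A had 6 counts in the resistant and 20 in the parental library (-1.67). Together with CFTR, CAV1 and MDFIC these make up the 10. SLC26A4, CFTR and TMEM229A are the 3 that did not reach 1 CPM in resistant cells, and with the deposited log2 values they differed by less than 1. Their length-scaled levels were under 1 in both libraries, where the deposited values cannot differ by 1.

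Higher genes were scarce in parental cells. DOCK4, which encodes an activator of small GTPases of the Rac type, had 663 counts in the resistant and 13 in the parental library (5.61). CPED1 had 179 counts in resistant and 10 in parental cells (4.08), and AASS, a lysine-degrading enzyme gene, had 74 in resistant and 9 in parental cells (2.96). DOCK4, CPED1, AASS, KCND2 and CTTNBP2 did not reach 1 CPM in parental cells and entered the comparison through the resistant library, so that their direction was fixed by the filter. CADPS2, a vesicle release gene, was the exception, at 33.9 CPM in resistant and 16.2 CPM in parental cells (1.07). With the deposited log2 values AASS, CADPS2 and CTTNBP2 differed by less than 1. For AASS and CTTNBP2, with length-scaled levels under 1 in both libraries, these values cannot differ by 1.

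**Figure D2:**
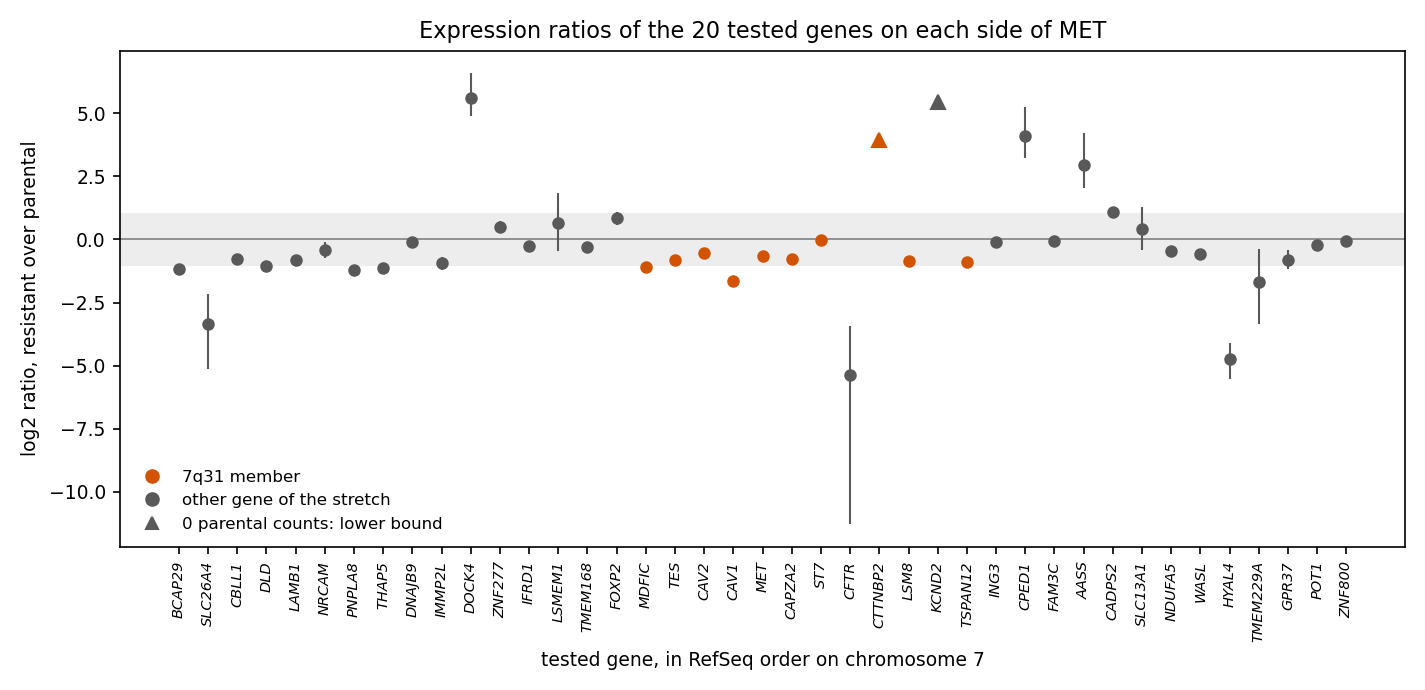
Log2 ratio, resistant over parental, of MET and the 20 tested genes on each side of it, in RefSeq order from left to right, with exact 95% counting intervals as bars where they exceed the points and triangles for lower bounds where the parental library had 0 counts. The grey band marks ratios under 2-fold. Members are orange, and MDFIC to CAPZA2 form an unbroken row below 0, with CAV1 the lowest of them at -1.66, while the points far from 0 include CFTR and KCND2, which had 1 and 0 counts in 1 of the libraries.

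Among the 30 genes of the stretch with a mean of at least 10 CPM, 26 ratios were below 0 and the median was -0.63. Over all 9327 tested genes of that abundance, 52.1% of ratios were below 0 and the median was -0.03. On the centromere side the median of such genes was -0.80 over 17 genes, with 14 below 0. On the telomere side it was -0.34 over 12 genes, with 11 below 0. The values of the 30 genes and of both sides include members. For the 21 such genes that are no members the median was -0.29, with 17 below 0. This abundance limit was set after the values had been seen, and it does not use the direction of a difference.

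The lower level was not limited to the genes beside MET. Over 25 consecutive genes of at least 10 CPM, the running median of the ratio (log2) was -0.48 at MET, over the genes from THAP5 to ZNF800. Its lowest value on all of chromosome 7, -0.77, was shared by 5 windows with centres from 14 to 6 tested genes to the centromere side of MET. The first of them spans ATXN7L1 to CAV1 and the last DUS4L to FAM3C, so that 4 of the 5 hold MET. It was under -0.25 in 58 consecutive windows, from a centre at AP1S1, 63 tested genes to the centromere side, to one at NDUFA5, 14 tested genes to the telomere side, a limit set after the values had been seen. The highest value on the chromosome, 0.74, was shared by 8 windows with centres from CASD1 to DLX6. Over all tested genes, with no such abundance limit, the running median at MET was -0.12 and the lowest value was -0.81, centred on PMPCB, 38 tested genes to the centromere side. On the telomere side it was again -0.56 at centres from KCND2 to ING3. Among genes of at least 10 CPM, MET thus lay towards the telomere end of a long stretch of chromosome 7 with lower RNA in resistant cells. This extent rests on limits set after the values had been seen, and other chromosomes are not shown.

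**Figure D3:**
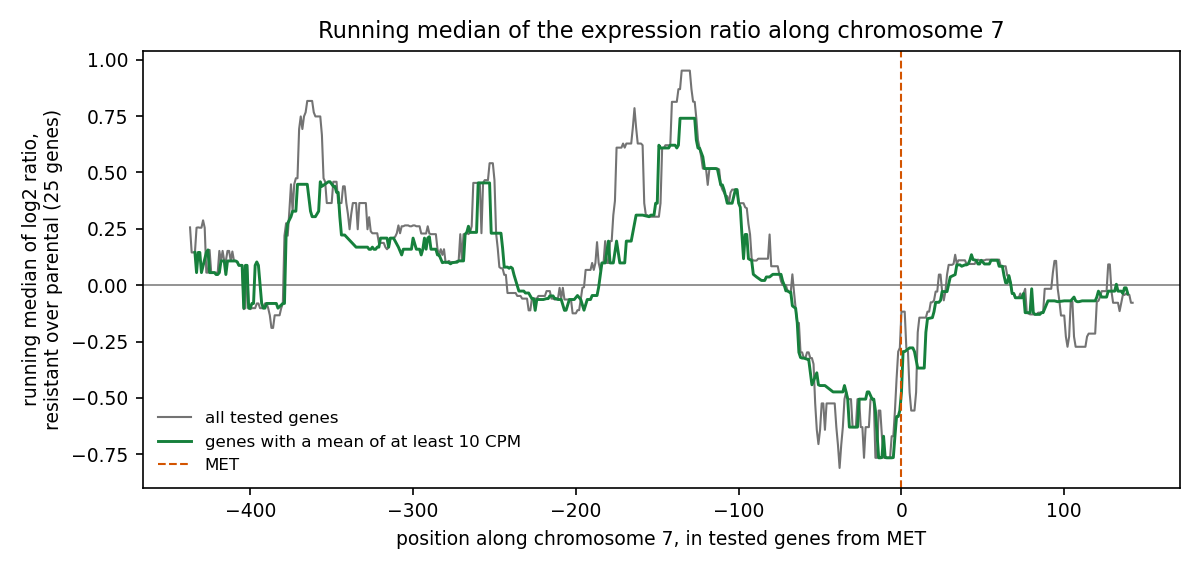
Running median over 25 genes of the ratio (log2), resistant over parental, along chromosome 7 from left to right in steps of 1 tested gene, with MET at 0 marked by a dashed line. Grey shows all tested genes and green those with a mean of at least 10 CPM. The green line has its lowest values, down to -0.77, just left of MET, is -0.48 at MET and returns to about 0 on the right, while the highest value of 0.74 lies far to the left.

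The genes whose products work with those of the members lie mostly elsewhere in the genome and showed no common lower level. Of 52 tested partner genes that are no members, 20 had ratios below 0, 7 were higher by the 2-fold rule and 4 lower, against 12.1% and 8.29% of all tested genes. Of the 7 higher genes 6 reached 1 CPM in both libraries, PIEZO2 being the other one, and so did all 4 lower genes. Their median was 0.12. With the members the lists held 62 tested genes, of which 8 were higher and 6 lower.

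Caveola genes differed in both directions, with 2 of 10 tested genes higher and 2 lower, against 12.1% and 8.29% of all tested genes. CAV1 and PACSIN3, which shapes membranes, were lower, PACSIN3 at -1.63. EHD2, an ATPase at the caveola neck, was higher, at 129 CPM in resistant and 28.0 CPM in parental cells (2.21). CAVIN3, a coat protein listed as PRKCDBP, had 415 counts in resistant and 17 in parental cells (4.56). CAVIN1, listed as PTRF, the coat protein needed for caveolae to form, was at 117 CPM in resistant and 76.7 CPM in parental cells and did not pass. CAV2 was the most abundant gene of the list, and CAV3 and CAVIN2 had 0 counts in both libraries. The tested caveolin genes and the tested cavin coat genes were therefore on different sides of 0, though for CAVIN4, listed as MURC, the interval of -0.02 to 2.07 included 0.

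The partners of the actin genes were near 0. CAPZA1, the other widely expressed alpha subunit of capping protein, was at 183 CPM in resistant and 168 CPM in parental cells (0.12), and the beta subunit gene CAPZB was at 155 CPM in resistant and 168 CPM in parental cells (-0.12). None of 7 tested capping genes passed 2-fold, where 12.1% of all tested genes were higher and 8.29% lower. CAPZA2 was the most abundant of the capping genes and the lowest in ratio. Of 9 genes around testin, 2 were higher and 0 lower, against 12.1% and 8.29% of all tested genes. The higher ones were the zyxin relative TRIP6 (3.27), with 589 counts in resistant and 60 in parental cells, and EVL (1.30), which aids actin growth. TES was the most abundant of that list and had its lowest ratio, followed by ENAH (-0.73), which binds testin.

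The LSM rings contain 8 subunits, of which LSM1 belongs to the cytoplasmic and LSM8 to the nuclear form. None passed 2-fold. LSM8 had the lowest ratio (-0.85), LSM4, the most abundant, was at -0.43, and LSM1 was at 0.06 (-0.18 to 0.30). The other 5 ranged from -0.50 for LSM7 to 0.23 for LSM5.

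Of the norrin receptor genes, FZD4 was higher, at 140.3 CPM in resistant and 25.8 CPM in parental cells (2.44), and the coreceptor gene LRP6 was lower (-1.16), though at -0.80 with the deposited log2 values. LRP5, the most abundant, was at 0.08, and the ligand gene NDP had 0 counts in both libraries. TSPAN12 and FZD4, whose products act together, thus lay on opposite sides of 0.

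MDFI, the relative of MDFIC, was lower as MDFIC was, at 7.36 CPM in resistant and 19.2 CPM in parental cells (-1.38). Of the mechanically gated channel genes, PIEZO2 had 161 counts in resistant and 0 in parental cells, at least 53.2-fold higher against the 3-count limit, with an exact interval that began at a log2 ratio of 5.42 and a difference of 0.97 in the deposited log2 values. PIEZO2 was tested through the resistant library only, so that its direction was fixed by the filter. Its difference in the deposited values was also pulled towards 0 by the 1 added before the log. PIEZO1, the most abundant of the list, was at 575 CPM in resistant and 444 CPM in parental cells (0.37). The muscle factor genes MYOD1, MYF5 and MYF6 had 0 counts in both libraries, and MYOG had at most 1.

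Of 16 genes of CTTNBP2, cortactin and the STRIPAK phosphatase complex, 2 were higher and 0 lower, against 12.1% and 8.29% of all tested genes. The higher ones were CTTNBP2 and the scaffold gene SLMAP (1.21). CTTNBP2 was tested through the resistant library only, so that its direction was fixed by the filter. The cortactin gene CTTN, the most abundant, was at 501 CPM in resistant and 332 CPM in parental cells (0.59). ST7L, the relative of ST7, was at 5.18 CPM in resistant and 5.82 CPM in parental cells (-0.17, with an interval of -0.60 to 0.26). In the MET family, the receptor gene MST1R was 2-fold or more lower (-2.38, -2.56 to -2.21), with 323 counts in the resistant and 1666 in the parental library. The ligand gene HGF had 0 counts in both libraries, and MST1 was under 1 CPM in both.

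**Figure D4:**
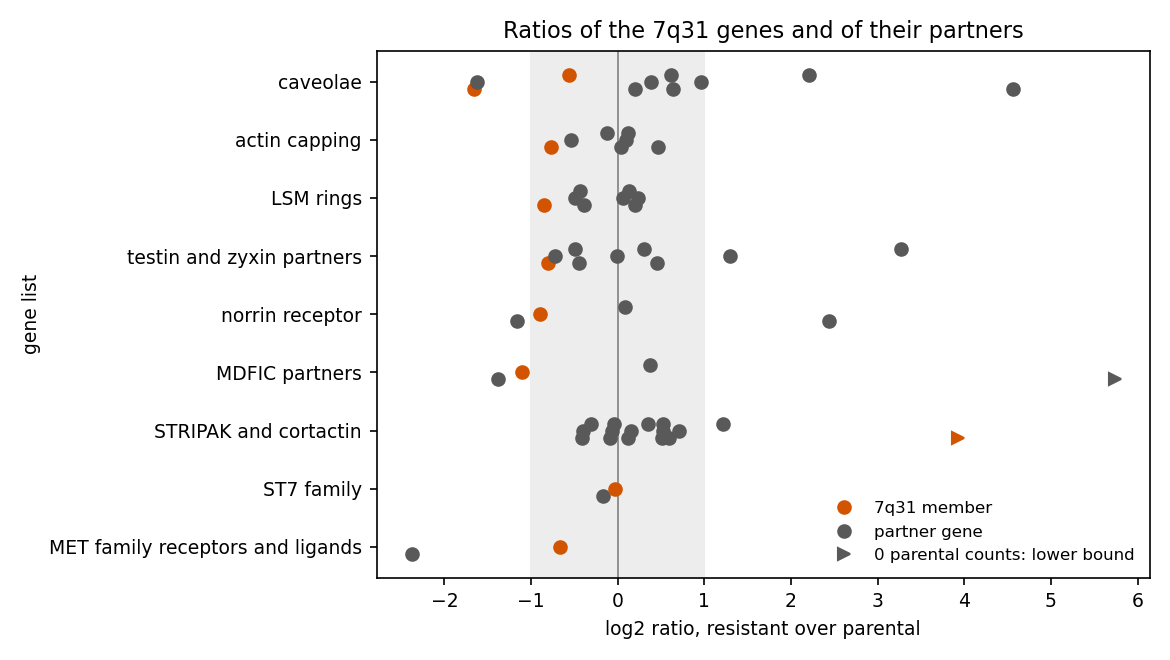
Log2 ratio, resistant over parental, of each tested gene in 9 lists, 1 point per gene, with the 7q31 members in orange, partner genes in grey and triangles for lower bounds where the parental library had 0 counts. The grey band marks ratios under 2-fold, and the points are spread up and down within a list only to keep them apart. The members of the capping, LSM and testin lists are their leftmost points, while the caveola list reaches from CAV1 at -1.66 to CAVIN3 at 4.56.

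The genes nearest to MET in log2 CPM over the 2 libraries were RPS2, EEF1A1, EEF2, ACTG1 and ACTB, at distances of 0.49 to 0.78. Their ratios ran from -0.30 to 0.26, so none was lower to the extent that MET was. The genes nearest to CAV1 were DSG2 and DSP, both of desmosomes, CAPN2, PHLDA1 and HNRNPF, at distances of 0.11 to 0.40, with ratios from -1.58 for DSG2 to -1.10 for HNRNPF. Because nearness was measured on the levels in both libraries, ratios near that of MET or CAV1 were largely fixed by the choice and are no separate result. These levels are not per length, the likeness rests on 2 libraries, and none of these genes other than ACTB lies on chromosome 7.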

How the data were processed

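RNA was sequenced in 1 resistant and 1 parental H1993 library. Per the labels' protocols, total RNA came from a TRIzol and chloroform extraction, followed by TruSeq library preparation. Per the submitters' processing notes, FastQC and STAR were used, and GRCh38 and hg19 are both named without roles. The counting program, annotation and strand setting are not given in the sources used here. The authors deposited raw counts per gene symbol beside normalized log2 values for the same genes, per the file headers, with no method stated for the normalization. The counts were scaled with edgeR 4.0.16 (TMM, R 4.3.3), giving effective sizes of 16974207 for the resistant and 16834058 for the parental library. Genes were tested when either library reached 1 CPM. Conditional binomial (Clopper-Pearson) intervals at 95% came from scipy 1.17.1 and were run on simulated Poisson counts. That simulation holds counting error alone, which these intervals assume, so it checks the calculation and not variation between cultures. Gene order came from RefSeq (GRCh38.p14), which placed 18832 of 18944 symbols, older ones through synonyms, and exon overlaps from GENCODE release 29 on GRCh38. Coordinates are given for promoter windows only. The 10 members, the 9 partner lists and the rule for named genes were chosen with earlier results of these data known. The rule names all members, the genes past 2-fold and the most abundant of the 41-gene stretch and of each partner list, and the 5 genes nearest to MET and to CAV1. Others were named after their values were seen. Of 77 partner genes, 74 were in the table and 62 tested. Alternatives covered the scaling, including DESeq2 1.42.0 size factors, the filter, the added count, the fold rule, the deposited log2 values and the width of the stretch. No count model was fitted, since that needs replicates.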

Additional observations from a re-analysis of the deposited data

How the results depend on the processing

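Direction was the same as in the report for all 69 values of the 10 members under 7 alternatives of scaling, filter, added count and source of the values. By call, CTTNBP2 was the exception, at 0.54 with the deposited log2 values, which left 0 members higher, as did a filter of 5 CPM, which it did not pass. At the low level of CTTNBP2 the deposited log2 values could not differ by 1. The counts of 2 members lower and 1 higher held under DESeq2 size factors, total counts, upper-quartile scaling, an added count of 5 and a rule that the whole interval lie beyond 2-fold. With total counts alone the log2 ratio of MET was -0.69. The 1.5-fold rule gave 7 lower members, 19 lower genes of the 41 in the stretch around MET and 12 of the 62 over the partner lists. Higher ones numbered 1, 7 and 12 in that order. Over all tested genes 16.4% were lower and 19.3% higher by that rule. The 4-fold rule gave 0, 3 and 1 lower and 1, 5 and 6 higher, against 2.93% and 6.32% of all tested genes. The count of lower genes in the stretch was 5 with no filter beyond 1 count and 3 with 10 genes on each side, where higher genes numbered 6 and 4, and that of higher genes was 3 with the deposited log2 values. The stretch's median of -0.56 was -0.12 with no filter, -0.42 with 5 CPM, -0.28 with 10 genes on each side, -0.36 with 40, and -0.63 with a mean of at least 10 CPM, a choice made after seeing the data. Each of the settings listed for this median changes which genes fill the stretch. The median of the members was -0.80 without MET, and also on the length-scaled level, likewise a choice made after seeing the data. No paired analysis was possible because each group has 1 library, and for the same reason no library could be left out. Intervals cover counting error alone, so variation between cultures is unknown, and at 0 counts a library cannot show levels under about 0.18 CPM.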
